A study of Mus musculus with 8 samples.

Results

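C/D box small nucleolar RNAs (snoRNAs) were compared between RNA recovered with DCP1A and input RNA of the mouse ovary. They were taken as all rows of the count table whose symbol starts with Snord and a digit, which gave 73 of 23107 genes. Of these, 56 rows had at least 10 counts in 3 or more of the 8 libraries and entered the fold changes. The other 17 rows did not.

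The tissue was ovarian cortex of mice at postnatal day 8, and the question was which RNAs of primary oocytes associate with DCP1A. RNA immunoprecipitation (RIP) with an antibody against DCP1A gave 4 RIP libraries, which were set against 4 input libraries. Strain, genotype and any pooling of animals are unstated in the sources, and no mock immunoprecipitation was analysed here. DCP1A is a co-activator of mRNA decapping and a component of cytoplasmic processing bodies.

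C/D box snoRNAs are short nuclear RNAs named after a pair of conserved sequence elements. With fibrillarin and its partner proteins they form particles that guide the addition of methyl groups to riboses of ribosomal RNA in the nucleolus, and some guide U6 spliceosomal RNA. A few, among them U22, U14 and U8, are needed to cut the ribosomal RNA precursor. Most mammalian C/D box snoRNAs lie in introns of other genes, the hosts, and are released by trimming after splicing. Many of the hosts encode ribosomal proteins, and others are long non-coding RNAs (lncRNAs) that are quickly degraded.

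Inputs 1 and 2 held 13098153 and 13142790 counts, and inputs 3 and 4 held 25757618 and 25030606. The RIP libraries held 16325387 to 21269891 counts. The inputs split by depth in the same way as by the snoRNA share given below, and the part of depth was not tested. Markers of the labelled tissue were present in all libraries. The 9 oocyte markers (such as Zp3 and Gdf9) summed to 1414 to 1995 CPM (counts scaled to library size) in input and 1379 to 1779 in RIP, and the 6 granulosa markers to 976 to 2329 and 1216 to 2029. The 3 leukocyte markers summed to 9.6 to 16.3 CPM in input and 17.2 to 30.1 in RIP, without overlap. Most of this sum was Csf1r, at a mean of 11.6 CPM in input and 20.8 in RIP. Cd68 had means of 0.737 and 2.57 CPM, and Ptprc went the other way, at 0.593 and 0.485 CPM. The part of leukocyte RNA in the snoRNA results was not tested. The labels do not say whether the 4 libraries of a group came from separate animals, so p-values rest on the spread between libraries alone, and this may be technical. RIP over input compares recovered RNA with input RNA. In such bulk tissue, it cannot tell which cells gave the RNA, nor fewer cells of a type from less RNA per cell.

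The C/D box snoRNAs together took up a small part of each library. Their share of all counts was 0.409%, 0.423%, 0.180% and 0.176% in inputs 1 to 4. It was 0.213%, 0.266%, 0.151% and 0.0639% in RIP libraries 1 to 4. Inputs 1 and 2 were the highest and RIP 4 the lowest, and RIP 1 and 2 lay between the input pairs, so the groups overlapped. In each of the 4 pairs of the same number the RIP library had the lower share. The mean share was 0.297% ± 0.138 in input and 0.173% ± 0.0869 in RIP (SD, n = 4 each), a difference of -0.124 percentage points. A sum over chosen rows was given no test.

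The same order of libraries ran through single rows. Among inputs, library 1 or 2 was the highest in 24 and 30 of the 56 rows, respectively, and library 3 was the lowest in 46. Among RIP libraries, RIP 2 was the highest in 33 rows and RIP 4 the lowest in 47. For the rows described below, values are therefore given for every library, and fold changes also for the lower-numbered pairs (libraries 1 and 2) and the higher-numbered pairs (libraries 3 and 4) apart, a grouping known from an earlier look at these data.

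**Figure D1:**
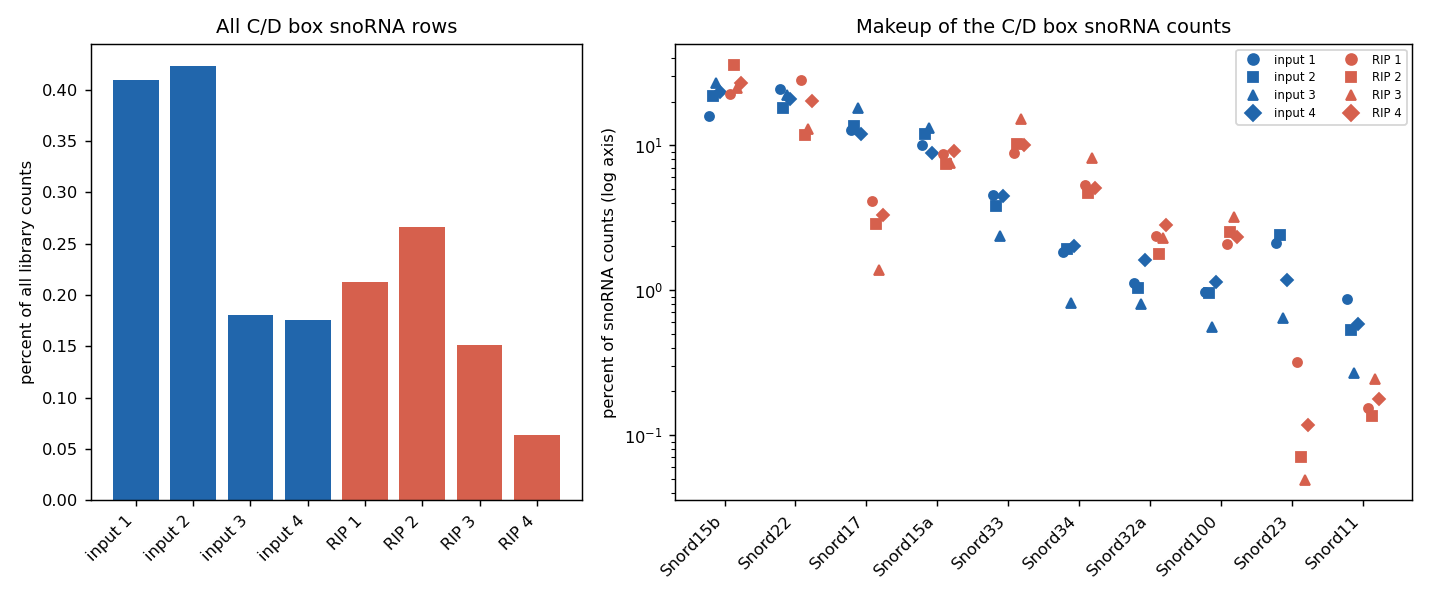
Left, percent of each library's counts that fell on C/D box snoRNA rows, 1 bar per library. Right, percent of the snoRNA counts taken by 10 rows on a log axis, 1 point per library; Snord17 fell from a mean of 14% in input to 2.90% in RIP, and all RIP libraries lay above all inputs for Snord33, Snord34, Snord32a and Snord100.

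Most rows had lower levels in RIP. The log2 fold change of RIP over input was negative in 47 of 56 rows, against 51.3% of the 15294 genes tested. The median over the 56 rows was -1.09, beside -0.02 over all genes, and single rows ran from -4.41 to 0.91. A log2 fold change under -1 was found in 29 rows and in 6.44% of all genes, and one over 1 in 0 rows and 6.43% of all genes. The 36 rows with at least 10 counts in every library had a median of -0.82. Snord19, Snord38a and Snord88a met the count rule through input libraries alone, so these 3 rows had to be lower in RIP, and they are part of the counts over the 56 rows. The rows were also measured less precisely, with a median SE of 0.69 against 0.41 for all genes.

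No row passed the threshold in the edgeR quasi-likelihood fit. At an adjusted p of 0.05, 0 of 56 rows were called lower, where 0.0392% of all genes were, and 0 were called higher, where 0% of all genes were. The lowest adjusted p was 0.104, for Snord17. At an unadjusted p under 0.05, 17 rows were lower against 4.15% of all genes, and 0 were higher against 3.32% of all genes.

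The calls depended on whether the shared numbering of libraries entered the fit, and no source states that this numbering pairs samples. With the replicate number as a block, edgeR called 10 rows lower (0.327% of all genes): Snord8, Snord11, Snord15a, Snord17, Snord22, Snord23, Snord67, Snord71, Snord83b and Snord85. With libraries 1 and 2 against 3 and 4 as a block it called 9 (0.294% of all genes), which were these without Snord11. Within libraries 1 and 2 alone it called 10 (0.262%), and within libraries 3 and 4 alone 1, Snord17 (0.0458%). DESeq2 without a block called 7 rows lower (0.281%), namely Snord8, Snord11, Snord17, Snord23, Snord67, Snord71 and Snord85, and limma voom called 0.

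The ranks of the libraries were compared without a model of the spread. In 8 rows every RIP library was below every input library (2.43% of all genes), and in 0 rows every RIP library was above (2.85%). The 8 were Snord7, Snord8, Snord11, Snord17, Snord23, Snord38a, Snord67 and Snord71. Without Snord38a, which entered through its input counts alone, there were 7, and 5 of them had at least 10 counts in every library. Snord7, also among the 7, reached 10 counts in 4 input libraries but in only 1 RIP library, so its input counts sufficed for the rule. The groups overlapped in the other 48 rows.

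**Figure D2:**
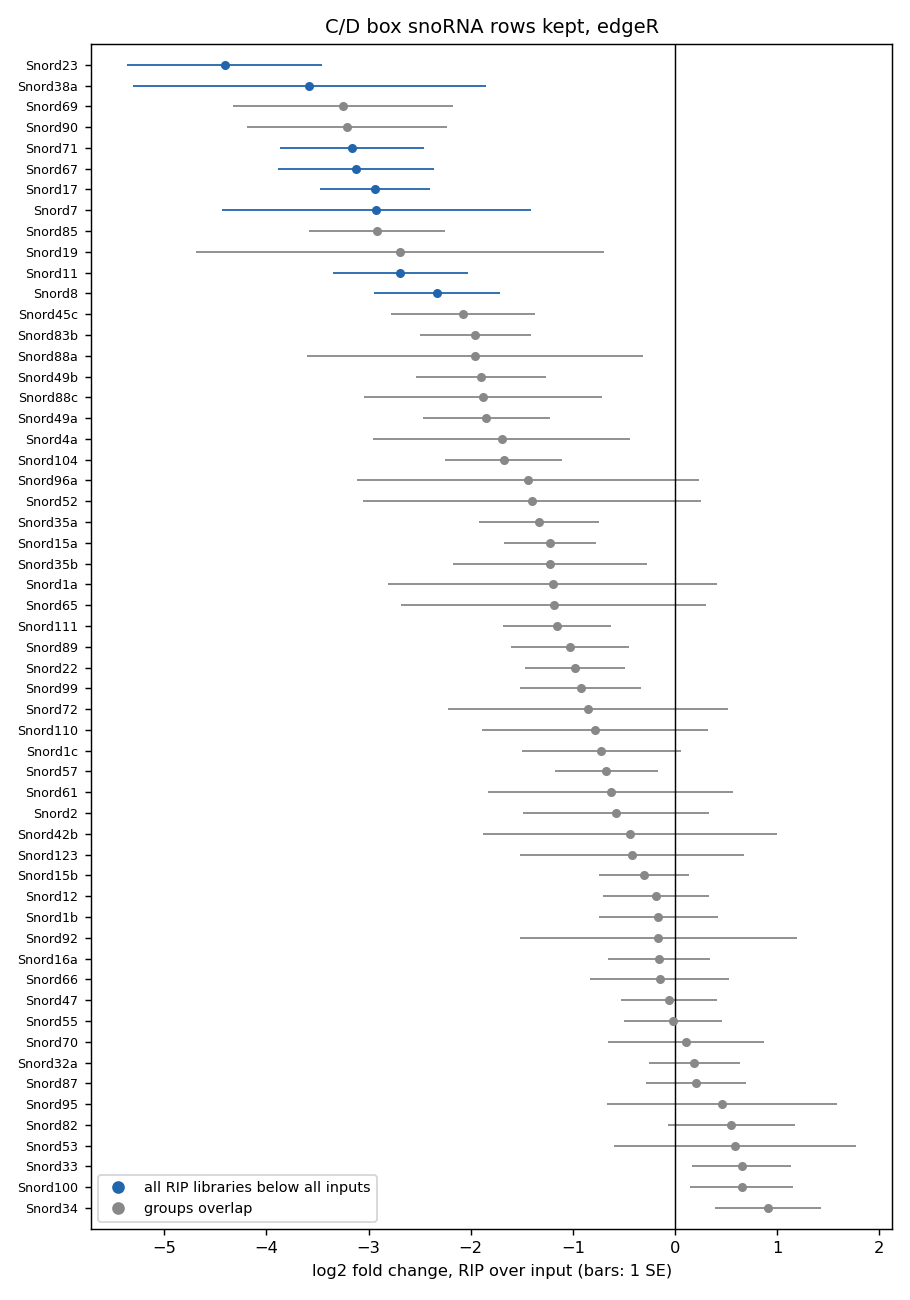
Log2 fold change of RIP over input (x axis) for each of the 56 C/D box snoRNA rows kept, ordered by value, with bars of 1 SE from the edgeR fit. Rows whose RIP libraries all lay below all inputs are blue; 47 points lie left of 0, from -4.41 for Snord23 upwards, and Snord34 is the highest at 0.91.

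Snord17 had the lowest p of the family. It is a long C/D box RNA of 221 bases (RefSeq, GRCm38.p6, chromosome 2, positions 144265982 to 144266202) inside the span of Snx5, which encodes a sorting nexin of endosomes. Its level was 569, 636, 284 and 192 CPM in inputs 1 to 4 and 105, 76.8, 19.6 and 18.5 CPM in RIP 1 to 4. All RIP libraries were below all inputs, with libraries 3 and 4 the lower ones of each group. The log2 fold change was -2.93 ± 0.54 (SE), with an adjusted p of 0.104 in edgeR and 1.13e-10 with the replicate block. DESeq2 gave an adjusted p of 0.00897. In edgeR the adjusted p was 0.0231 without RIP 1 and between 0.0917 and 0.370 with each other library left out. For libraries 1 and 2 alone it was 9.50e-11, and for libraries 3 and 4 alone 0.00118, with log2 fold changes of -2.74 and -3.64. The Snx5 row had a log2 fold change of -0.51 ± 0.26 and an adjusted p of 0.693.

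Snord23 had the largest fold change. It lies on chromosome 7 at 15938762 to 15938860, inside Nop53, which encodes a nucleolar factor of the large ribosomal subunit. Its level was 94.3, 113.3, 10.1 and 18.7 CPM in the inputs and 8.11, 1.91, 0.703 and 0.665 CPM in the RIP libraries. Inputs 1 and 2 stood above inputs 3 and 4, and the highest RIP library was below the lowest input. The log2 fold change was -4.41 ± 0.95, with an adjusted p of 0.275 in edgeR, 8.86e-09 with the replicate block. Without RIP 1 it was -5.75, with an adjusted p of 0.0151. The lower- and higher-numbered pairs gave -4.41 and -4.39. The mean of Nop53 itself was 203 ± 15.6 CPM in input against 202 ± 34.0 CPM in RIP (SD, n = 4 each), with a log2 fold change of -0.01 ± 0.22.

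By unadjusted p in edgeR, Snord71 and then Snord85 came next after Snord17, ahead of Snord23. Snord85 was at 79.0, 69.6, 7.93 and 20.0 CPM in the inputs and 10.03, 7.87, 3.80 and 1.71 CPM in the RIP libraries. RIP 1 exceeded input 3, so the groups overlapped. The log2 fold change was -2.92 ± 0.66, with an adjusted p of 0.275 in edgeR, 0.000231 with the replicate block and 0.0294 without input 3. It was -3.06 in the lower-numbered and -2.34 in the higher-numbered pairs.

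Snord71 (chromosome 8, 109839312 to 109839375) guides 5.8S ribosomal RNA. It was at 31.7, 29.4, 3.95 and 9.14 CPM in the inputs and 3.10, 2.24, 2.44 and 0.523 CPM in the RIP libraries, without overlap. The log2 fold change was -3.16 ± 0.70, with an adjusted p of 0.247 in edgeR, 0.0155 with the replicate block and 0.0379 without input 3. The lower-numbered pairs gave -3.53 and the higher-numbered pairs -2.14. Its position is shared by the spans of Ap1g1 and a predicted gene, so no host was assigned.

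Snord67, a guide of U6 RNA inside Ckap5 (chromosome 2, 91596081 to 91596178), was at 25.4, 27.8, 5.35 and 8.81 CPM in the inputs. In the RIP libraries it was at 4.35, 2.38, 0.422 and 0.618 CPM. All RIP libraries were lower, with a log2 fold change of -3.13 ± 0.76 and an adjusted p of 0.356 in edgeR and 0.0017 with the replicate block. It was -2.996 in the lower-numbered and -3.76 in the higher-numbered pairs, and -3.87 without RIP 1. Snord8, also a guide of U6 RNA (chromosome 14, 52209786 to 52209884), was at 64.6, 55.4, 15.1 and 17.3 CPM in the inputs and 10.5, 14.4, 3.19 and 2.19 CPM in the RIP libraries. It too did not overlap, with a log2 fold change of -2.33 ± 0.61 and an adjusted p of 0.461 in edgeR and 0.000231 with the replicate block. The lower- and higher-numbered pairs gave -2.27 and -2.60. Snord7 was at 5.54, 1.95, 1.26 and 0.874 CPM in the inputs and 0.738, 0.429, 0.0938 and 0 CPM in the RIP libraries, with a log2 fold change of -2.93 ± 1.51 and an adjusted p of 0.693 in edgeR and 0.428 with the replicate block. Snord8 and Snord7 were chosen after their values were seen.

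**Figure D3:**
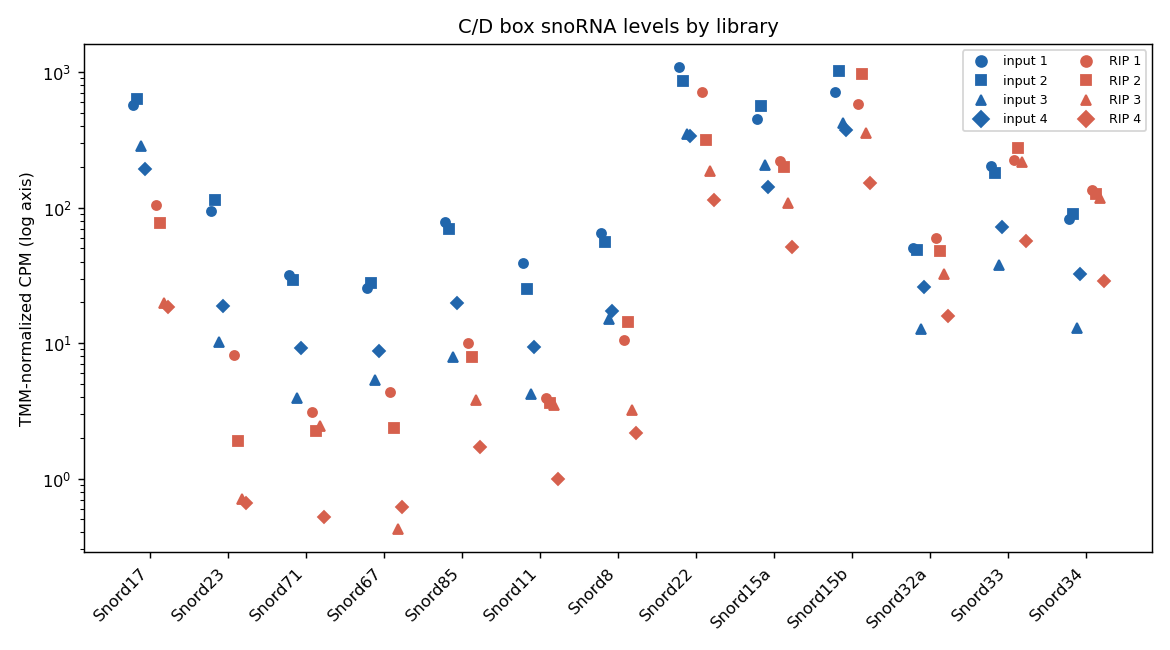
TMM-normalized CPM of 13 C/D box snoRNA rows on a log axis, 1 point per library, blue for input and red for RIP, with the library number as the marker. Snord17, Snord23, Snord71, Snord67, Snord11 and Snord8 have every RIP point below every input point, while the points of Snord32a, Snord33 and Snord34 overlap.

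The rows of the highest level per base in input were led by Snord22 and the Snord15 pair. Per kilobase of the annotated RNA, mean input CPM was 5230 for Snord22, 4378 for Snord15b, 2311 for Snord15a, 1901 for Snord17 and 1503 for Snord33. In RIP the same per-length means were 2652, 3549, 986, 249 and 2358. Snord17 was thus the fourth of these 5 in input and the lowest in RIP, while Snord33 moved from the lowest to the third. Spreads between libraries were wide, and neighbouring levels overlapped.

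Snord22 (U22) is needed for processing of 18S ribosomal RNA and lies in the lncRNA Snhg1 (chromosome 19, 8725866 to 8725991). It was at 1092, 858, 348 and 337 CPM in the inputs and 720, 318, 186 and 113.7 CPM in the RIP libraries. RIP 1 lay among the inputs. The log2 fold change was -0.98 ± 0.49, with an adjusted p of 0.687 in edgeR and 0.00418 with the replicate block. It was -1.68 without RIP 1 and -0.62 without input 1, and -0.92 and -1.20 in the lower- and higher-numbered pairs. The mean of the Snhg1 row was 13.8 ± 10.2 CPM in input against 7.36 ± 3.31 CPM in RIP, and it had a log2 fold change of -0.91 ± 0.57. Snord99, in the lncRNA Snhg12, was also among the 8 highest rows by mean input CPM. Its level was 104, 74.6, 12.4 and 34.7 CPM in the inputs and 33.3, 55.2, 24.5 and 5.94 CPM in the RIP libraries. The groups overlapped, with a log2 fold change of -0.92 ± 0.59. The adjusted p was 0.756 in edgeR and 0.460 with the replicate block. The lower- and higher-numbered pairs gave -1.01 and -0.63.

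Snord15a and Snord15b are related guides of 28S ribosomal RNA, both inside Rps3, a gene of the small ribosomal subunit, on chromosome 7. Snord15a (99482785 to 99482932) was at 450, 567, 208 and 142 CPM in the inputs and 222, 202, 109 and 51.4 CPM in the RIP libraries. Its log2 fold change was -1.23 ± 0.45, with an adjusted p of 0.609 in edgeR and 0.000914 with the replicate block, and it was -1.27 in the lower-numbered and -1.13 in the higher-numbered pairs. Snord15b (99479563 to 99479707) was at 713, 1029, 424 and 373 CPM in the inputs and 581, 969, 357 and 151 CPM in the RIP libraries. Its groups overlapped widely, with a log2 fold change of -0.30 ± 0.44 and an adjusted p of 0.903, and it was -0.17 and -0.65 in the lower- and higher-numbered pairs. As the copies resemble each other, the authors' counting could split reads between them. Snord104, in the lncRNA Gm36220, was also among the 8 highest rows by mean input CPM. Its level was 113.8, 128.5, 21.1 and 39.7 CPM in the inputs and 30.2, 36.6, 23.2 and 4.66 CPM in the RIP libraries. The groups overlapped, with a log2 fold change of -1.68 ± 0.57. The adjusted p was 0.609 in edgeR and 0.0752 with the replicate block. The lower- and higher-numbered pairs gave -1.86 and -1.13.

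Snord33 and Snord34 were among the 9 rows with a positive log2 fold change. They lie in Rpl13a, a gene of the large ribosomal subunit, with Snord32a and Snord35a. These snoRNAs guide ribosomal RNA methylation and are also known from studies of lipotoxic and oxidative stress, where they were found in the cytoplasm. Snord34 (chromosome 7, 45126603 to 45126668) was at 81.9, 90.1, 12.97 and 32.2 CPM in the inputs and 135, 127, 117 and 28.8 CPM in the RIP libraries. RIP 1 to 3 were above all inputs and RIP 4 was below input 4, with a log2 fold change of 0.91 ± 0.52 and an adjusted p of 0.727. The lower-numbered pairs gave 0.60 and the higher-numbered pairs 1.69. Snord33 (45126864 to 45126945) was at 203, 180, 37.6 and 71.7 CPM in the inputs and 226, 274, 217 and 56.7 CPM in the RIP libraries. Its log2 fold change was 0.65 ± 0.48, with an adjusted p of 0.793, and it was 0.38 and 1.32 in the lower- and higher-numbered pairs. Snord100, in Rps12, had a log2 fold change of 0.65 ± 0.51 and an adjusted p of 0.807, with 0.45 and 1.13 in the lower- and higher-numbered pairs. None of these 3 rows was called with the replicate block either.

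The total of snoRNA counts differed between libraries, so each row was also read as a percent of the snoRNA counts of its own library, a measure added after values were seen. In 15 of 56 rows every RIP library then lay below every input (0.248% of all genes), and in 11 rows every RIP library lay above every input (5.51% of all genes). The denominator fell in RIP, which raises any other gene on this measure, and the percents of the rows are tied to each other through their sum. With Snord17 left out of the denominator, 16 rows were below and 9 above. With the 5 largest rows left out, 19 were below and 11 above. Among the 36 rows with at least 10 counts in every library, 10 were below and 10 above. The shares over all genes given above belong to the 56 rows and the full denominator, and none was computed for these other counts.

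The rows below were Snord4a, Snord7, Snord8, Snord11, Snord17, Snord23, Snord38a, Snord45c, Snord49a, Snord49b, Snord67, Snord71, Snord83b, Snord85 and Snord90. Snord38a, which met the count rule through input libraries alone, is 1 of them, and without it there were 14. Snord7 and Snord4a, among the 14, reached 10 counts in 4 input libraries each but in only 1 and 2 RIP libraries. Snord17 took 12.7%, 13.5%, 17.9% and 11.9% of snoRNA counts in the inputs and 4.10%, 2.85%, 1.37% and 3.27% in the RIP libraries. Its mean was 14% ± 2.70 in input and 2.90% ± 1.14 in RIP (SD, n = 4 each). Snord8 took 1.16% ± 0.204 in input and 0.388% ± 0.128 in RIP.

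The rows above were Snord16a, Snord32a, Snord33, Snord34, Snord47, Snord53, Snord55, Snord70, Snord82, Snord87 and Snord100. Snord33 took 4.52%, 3.82%, 2.38% and 4.47% of snoRNA counts in the inputs and 8.81%, 10.1%, 15.2% and 10.02% in the RIP libraries. Snord34 took 1.82%, 1.91%, 0.820% and 2.00% in the inputs and 5.27%, 4.71%, 8.18% and 5.09% in the RIP libraries. Snord100 went from 0.9003% ± 0.246 to 2.54% ± 0.486. RIP 3 was the highest and input 3 the lowest library for each of these 3 rows. Snord15b and Snord22, the largest contributors, overlapped between groups at 21.9% ± 4.57 and 21.4% ± 2.53 in input and 27.6% ± 5.80 and 18.2% ± 7.54 in RIP.

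The rows above and below did not separate by length, with a median of 68 bases in each set. They ranged from 53 to 91 bases above and from 59 to 221 below. Of the 11 rows above, 6 lay inside a gene for a ribosomal protein, against 3 of the 15 rows below, 6 of the 30 that overlapped and 15 of all 56. The 15 rows in ribosomal protein genes had a median log2 fold change of -0.45 (from -3.58 to 0.91), and the 41 elsewhere a median of -1.19 (from -4.41 to 0.59). These are counts without a test, and rows of the same gene are not independent.

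Rows that share a host can be compared within a library, where scaling cancels. Of 10 such pairs with at least 10 counts in every library, chosen by position, 5 did not overlap between groups. Each of the 5 had an exact two-sided permutation p of 0.0286, the smallest that 4 against 4 libraries allow, and an adjusted p of 0.0571 over the 10 pairs, so 0 pairs passed. Pairs within Rpl13a share members and are not independent.

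Snord70 and Snord11 both lie in Nop58, which encodes a core protein of the C/D box particle itself, on chromosome 1. Snord70 is at 59691958 to 59692010 and Snord11 at 59704808 to 59704870. The log2 ratio of Snord70 over Snord11 was -2.50, -1.50, -1.31 and -2.36 in the inputs and 0.50, 0.83, 1.07 and 0.56 in the RIP libraries. It changed sign between the groups, with a difference of 2.66 ± 0.33 (SE). Snord11 was at 38.9, 25.2, 4.22 and 9.36 CPM in the inputs and 3.91, 3.62, 3.47 and 0.998 CPM in the RIP libraries. Its log2 fold change was -2.69 ± 0.66, with an adjusted p of 0.358 in edgeR and 0.0408 with the replicate block. It was -3.09 in the lower-numbered and -1.60 in the higher-numbered pairs, and -2.10 without input 1. Snord70 was at 6.88, 8.91, 1.70 and 1.82 CPM in the inputs and 5.53, 6.44, 7.27 and 1.47 CPM in the RIP libraries, and its log2 fold change was 0.11 ± 0.76, a sign that turned when any of RIP 2, RIP 3, input 3 or input 4 was left out. It was -0.40 in the lower-numbered and 1.31 in the higher-numbered pairs. Nop58 had a log2 fold change of -0.58 ± 0.39.

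In Rpl13a, Snord35a parted from its 3 neighbours. Snord35a (chromosome 7, 45126347 to 45126435) was at 73.2, 75.4, 10.9 and 18.0 CPM in the inputs and 23.0, 27.9, 14.2 and 5.18 CPM in the RIP libraries, with log2 fold changes of -1.55 in the lower-numbered and -0.57 in the higher-numbered pairs. The log2 ratio of Snord35a over Snord34 was -0.16, -0.26, -0.26 and -0.84 in the inputs and -2.55, -2.19, -3.04 and -2.48 in the RIP libraries, a difference of -2.18 ± 0.24. The difference was -1.86 ± 0.22 against Snord33 and -1.35 ± 0.33 against Snord32a. The log2 ratios among Snord32a, Snord33 and Snord34 overlapped between groups, with differences of 0.32 ± 0.14, 0.83 ± 0.28 and 0.51 ± 0.26.

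The fifth pair without overlap was Snord1c over Snord1b in the lncRNA Snhg16, whose log2 ratio had a mean of -0.89 ± 0.24 in input and -1.43 ± 0.16 in RIP (SD, n = 4 each). Its groups nearly met, at -1.222 in input 4 and -1.227 in RIP 2, and Snord1c had only 19 counts in RIP 4. Snord15b over Snord15a had 0.98 ± 0.31 in input and 1.73 ± 0.38 in RIP, with overlap and an exact permutation p of 0.0571. Snord49b over Snord49a, which lie in the same lncRNA, gave 0.04 ± 0.10 and -0.05 ± 0.35, an exact permutation p of 0.8 and a difference of -0.09 ± 0.18 (SE).

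**Figure D4:**
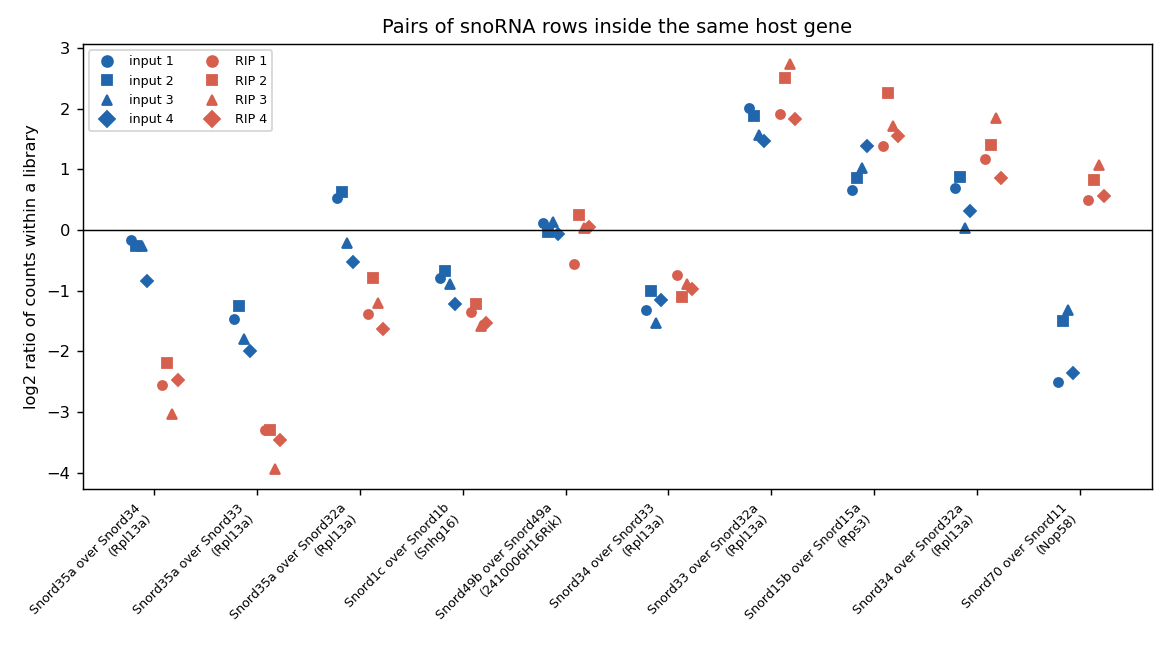
Log2 ratio of counts within a library for 10 pairs of C/D box snoRNA rows in the same host (y axis), 1 point per library, blue for input and red for RIP. The ratio of Snord70 over Snord11 lies below 0 in all inputs and above 0 in all RIP libraries, and the 3 ratios of Snord35a over its neighbours are lower in all RIP libraries than in any input.

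Host rows were closer to equal between the groups than the snoRNAs inside them. A single host with its own tested row was found for 34 of the 56 rows, in 24 genes, of which 17 are protein coding and 7 lncRNAs. The edgeR fit called 0 of the 24 hosts, and 1, Ckap5, had an unadjusted p under 0.05 (log2 fold change -0.77 ± 0.34), beside 4.15% of all genes lower at that p. The hosts' log2 fold changes had a median of -0.35 and ran from -0.94 to 0.97, with 17 negative. In 28 of 34 cases the snoRNA's log2 fold change was lower than its host's. Snord19 and Snord88a, which met the count rule through input libraries alone and so had to be lower in RIP, are among the 28.

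Across the 34 rows the log2 fold changes of snoRNA and host had a Pearson r of 0.146 and a Spearman rho of 0.115, given as a description, since rows share libraries and some share a host. The median log2 fold change was -1.44 for the 23 of these rows in protein-coding hosts and -0.98 for the 11 in lncRNA hosts. The 23 include none of the 15 rows in ribosomal protein genes, for which no tested host row was found and whose median was -0.45. These medians therefore do not compare all rows of each host type. Length and log2 fold change had a Pearson r of -0.148 and a Spearman rho of -0.03 over the 56 rows. The hosts Rpl13a, Rps3, Rps12, Rpl3, Rpl4 and Rpl23a were not analysed here.

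**Figure D5:**
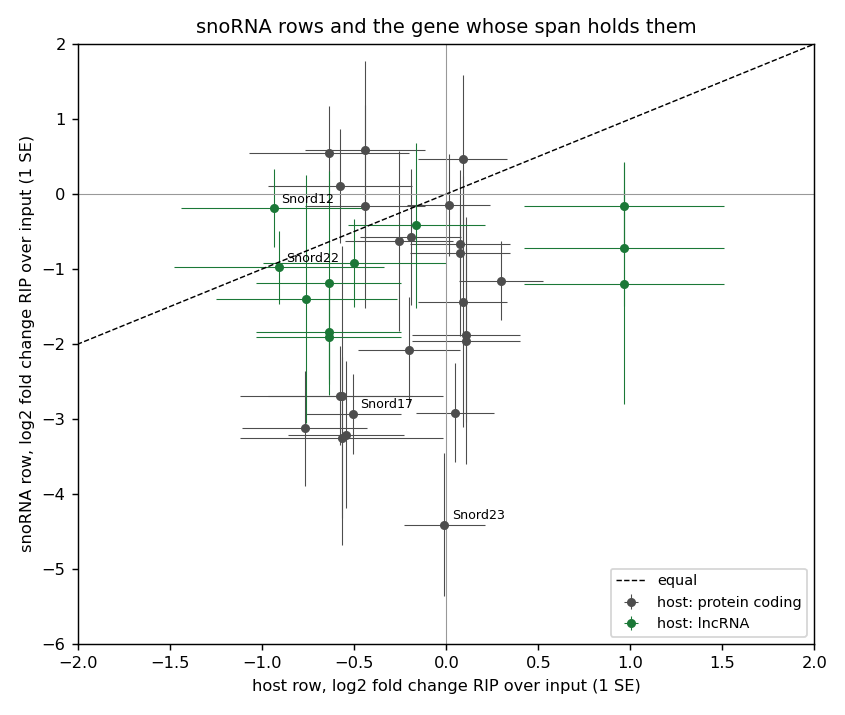
Log2 fold change of RIP over input for 34 C/D box snoRNA rows (y axis) against that of the gene whose span holds them (x axis), with bars of 1 SE and a dashed line of equality; green points have an lncRNA host and grey points a protein-coding host. Of the points, 28 lie below the line, with Snord23 the farthest down and its host near 0. Snord19 and Snord88a, kept through input counts alone, are among the 28.

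Genes of the C/D box particle and its making were then read from the same fit. The core proteins Fbl (fibrillarin, the methyltransferase), Nop56, Nop58 and Nhp2l1 (the kink-turn binding protein Snu13) had log2 fold changes of -0.01 ± 0.26, 0.08 ± 0.27, -0.58 ± 0.39 and -0.08 ± 0.25. None of the 4 passed in either direction, and their median was -0.05. Of 11 assembly factors 0 passed, with a median of -0.22, and 1 had a lower level at an unadjusted p under 0.05, the chaperone Hsp90aa1 (-0.74 ± 0.34), beside 4.15% of all genes. Of 19 genes of snoRNA release and trimming 0 passed, with a median of -0.21. Unadjusted p-values under 0.05 were found for 4 of its 19 genes, all with lower levels in RIP, beside 4.15% of all genes lower and 3.32% higher. They were the exosome subunits Exosc1 and Exosc9, the exosome helicase Skiv2l2 (Mtr4) and the exosome cofactor C1d. Their log2 fold changes were -0.81 ± 0.35, -0.87 ± 0.30, -0.84 ± 0.35 and -1.01 ± 0.44.

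Of the 17 rows left out of the fold changes, 13 had 0 counts in every library. Among them were U8 (Snord118) and the U14 copies Snord14a, Snord14c and Snord14d, which serve ribosomal RNA cutting, and Snord116, Snord116l2 and Snord64 of the imprinted Prader-Willi region. The others at 0 were Snord42a, Snord43, Snord45b, Snord58b, Snord93 and Snord98. The rows at 0, those of U8 and U14 among them, are only listed here, since 0 counts do not show that an RNA was absent. Of the 12 with an annotated length, 7 were at most 60 bases long, with a median of 51.5 and a range of 28 to 137, while 11 of the 56 rows kept were that short, with a median of 68.

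The last 4 rows, Snord37, Snord68, Snord73a and Snord91a, held 44, 12, 40 and 3 counts over all libraries. At the threshold, Snord19 and Snord88a were just inside. Snord19 had 12, 13, 0 and 16 counts in the inputs and 5, 1, 0 and 0 in the RIP libraries, and Snord88a had 12, 19, 20 and 8 counts in the inputs and 8, 3, 4 and 0 in the RIP libraries. Snord37, just outside, had 20, 3, 0 and 1 counts in the inputs and 3, 6, 10 and 1 in the RIP libraries. Of the rows kept, 3 reached 10 counts in input libraries only and 0 in RIP libraries only.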

How the data were processed

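A Magna RIP kit was used for the immunoprecipitation and a stranded SMARTer Pico kit for the total RNA libraries, per the labels' protocols. The genome build was mm10 (submitters' processing notes). The aligner, counting tool, annotation, strand use and fragment sizes were not given in the sources used here. Hence reads of a snoRNA, of its host's precursor and of overlapping or antisense genes cannot be told apart. The authors deposited a table of estimated counts (expected counts) for 23107 genes, of which up to 1.85% per library were not whole (tolerance 1e-09). The design had assumed whole counts, so the values were rounded.

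The comparison of RIP and input was made with edgeR 4.0.16 in R 4.3.3 (TMM factors, robust quasi-likelihood fit, Benjamini-Hochberg adjustment, threshold 0.05) over the 15294 genes with at least 10 counts in 3 or more libraries. The SE is the size of the log2 fold change over the square root of F. The fit was tested on simulated data. Alternatives were DESeq2 1.42.0, limma 3.58.1 (voom with sample weights), other scalings and filters, blocks, parts of the libraries and leaving out each library. The same replicate numbers stand in both groups, and deviations of same-numbered libraries from their group means correlated at 0.206, 0.112, 0.190 and 0.129. Other pairs correlated as well, input 3 and RIP 4 at 0.330, input 2 and RIP 1 at 0.185 and input 4 and RIP 3 at 0.139. The correlations thus did not single out the same-numbered pairs. For the replicate block the numbers were taken to pair the libraries, which no source states.

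Positions, lengths and hosts came from the RefSeq gene table of GRCm38.p6, 1-based, which held 72 of the 73 rows. A host is the only gene whose span contains the row. The planned match of strand could not be applied, since that table gives none, and intron or exon position was not read. Of the 56 rows kept, 50 had 1 such gene, 5 several and 1 none.

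The members and lists were chosen with earlier results of these data known. Rows were named by rule if past the threshold, among the 8 highest in input or the 6 lowest in p, next to the count threshold, or from a list of special snoRNAs (Snord118, Snord13, Snord3, Snord14, Snord22, Snord17, Snord64, Snord107 and Snord112 to Snord116), with their hosts and the core proteins. All other rows and genes named with values were chosen after their values were seen. Snord34, at a mean of 54.3 CPM in input, was just outside the 8 highest by mean input CPM and counts among these. Lists held assembly factors, release and trimming genes and markers of cell types. The 3 endothelial markers had a median log2 fold change of -0.03, the 6 stroma and theca markers 0.17, and the 1 red cell marker row tested -0.98, with 0 called in any marker list.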

Additional observations from a re-analysis of the deposited data

Results flagged for a closer look

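In 4 of 54 groups of 4 libraries, 1 library stood far from the other 3 of its group, by Dixon's ratio of the gap to the range, a rule that chance alone meets in about 1 in 20 groups. For Snord11, RIP 4 was the lowest at 0.998 CPM. For Snord34, RIP 4 was the lowest at 28.8 CPM. For Snord23, RIP 1 was the highest at 8.11 CPM, and for Snord19, RIP 1 was the highest at 0.369 CPM, which is 5 counts.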

How the results depend on the processing

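The count of 0 rows called lower in edgeR became 7 with DESeq2, 10 with the replicate block, 9 with libraries 1 and 2 against 3 and 4 as a block, 10 within libraries 1 and 2 and 1 within libraries 3 and 4. It lay between 0 and 2 with a library left out: 2 without RIP 1 (Snord17 and Snord23) and 2 without input 3 (Snord71 and Snord85). It stayed 0 with limma voom and under the other scalings and filters run. The cause was not tested. No row was called higher, and no host or particle gene was called, under any alternative run.

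The median log2 fold change of the snoRNA rows ran from -1.32 to -0.68 with a library left out and was -1.004 with the replicate block and -0.61 within libraries 3 and 4. That of the hosts ran from -0.41 to -0.054, the latter without input 3. The difference in share of counts ran from -0.164 to -0.0818 percentage points with a library left out. The number of negative rows ran from 36, without input 2, to 50, without RIP 2. The number of rows apart per snoRNA count ran from 15 to 19 below and from 11 to 16 above with a library left out, the 16 without RIP 1. Leaving a library out can only keep or add rows on this measure, so the lower ends were fixed in advance. No share over all genes was computed for these counts.

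Among the values followed singly through the alternatives, signs turned for 5 near 0. With a library left out, the log2 fold change ran from -0.17 to 0.59 for Snord70 (-0.02 without RIP 2, -0.10 without RIP 3, -0.17 without input 3 and -0.17 without input 4), from -0.093 to 0.45 for Snord32a (negative without RIP 1 and, at -0.087, without input 3), from -0.22 to 0.59 for Snord87 (negative without RIP 2 and, at -0.051, without input 3) and from -0.81 to 0.032 for Snord15b (positive without input 2 and, at 0.0041, without RIP 4). Within libraries 1 and 2 it was -0.40 for Snord70. The difference in log2 ratio of Snord49b over Snord49a ran from -0.20 to 0.073, the latter without RIP 1. Rows not followed singly turned as well. Snord55, for example, was at -0.015 in the main fit and 0.026 with libraries 1 and 2 against 3 and 4 as a block. The number of negative rows was 47 in the main fit, 42 with that block and 40 with limma voom. Of the 56 rows, 18 were under 10 counts in at least 1 RIP library and 2 in an input library only, which limits their precision.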
